A study of Homo sapiens with 4 samples.

Results

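The clustered histone genes are the 71 protein-coding genes named HIST1H, HIST2H, HIST3H or HIST4H among 51103 genes (19922 of them protein-coding) measured in polyA RNA of AGS, an established human gastric adenocarcinoma line. They were chosen by name alone, in the older symbols that the files use. In the study 2 libraries were labelled FGF2 (recombinant human FGF2 protein, 20 ng/mL, 24 h) and 2 were labelled NC. The labels do not spell out NC. Their treatment text for NC also describes FGF2, so the true treatment of those cells cannot be read from the labels. AGS was the only line, and the labels do not say whether libraries of a group came from separate cultures. Totals for libraries 1 and 2 were 13790335 and 27598608 for FGF2 and 14073340 and 27325697 for NC. In each group library 1 exceeded library 2 at only 2 genes (of 22043 genes with a count in FGF2 and 22485 in NC), so the counts of library 2 are those of library 1 plus further reads. Each group was therefore counted as 1 sample. No difference below has a test, and intervals are exact Clopper-Pearson 95% intervals that cover counting error only.

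Clustered histone genes encode the linker histone H1 and the core histones H2A, H2B, H3 and H4 that package new DNA, and most are transcribed mainly in S phase. Their mRNAs are unusual in that most end without a poly(A) tail: the transcript is cut just after a short stem-loop, which the protein SLBP binds and the U7 small nuclear RNP helps to process. Some of these genes are also known to give transcripts that run past the stem-loop to an ordinary poly(A) site, and a polyA library is made to select RNA with a tail.

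A total of 8 members had at least 50 counts in library 2 of either group, and the annotated models of 6 of these hold a stem-loop and go on past it. These sites are shown because they mark where the usual end of the mRNA would lie, upstream of the annotated end. Capitals mark the stem-loop, read 5′ to 3′ on the transcript strand from GENCODE v29 transcripts (GRCh38).
HIST3H2A: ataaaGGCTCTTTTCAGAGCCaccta
HIST1H2AC: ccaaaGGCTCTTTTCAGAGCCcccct
HIST1H2AG: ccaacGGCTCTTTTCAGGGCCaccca
HIST2H2BE: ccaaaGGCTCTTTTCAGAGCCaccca
HIST1H3H: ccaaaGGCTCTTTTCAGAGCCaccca
HIST1H4I: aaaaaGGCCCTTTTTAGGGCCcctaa
The stem-loops lie at chr1:228457369-228457384 (minus strand) for HIST3H2A, chr6:26124669-26124684 (plus) for HIST1H2AC, chr6:27133515-27133530 (plus) for HIST1H2AG, chr1:149886188-149886203 (minus) for HIST2H2BE, chr6:27810516-27810531 (plus) for HIST1H3H and chr6:27139654-27139669 (plus) for HIST1H4I. Each lies in the 3′ UTR, 31 to 56 bases past the stop codon. The model ran on past it for 390 bases in HIST3H2A, 1114 in HIST1H2AC, 1761 in HIST1H2AG, 1729 in HIST2H2BE, 769 in HIST1H3H and 212 in HIST1H4I. The other 2 of the 8, HIST1H2BK and HIST1H1C, have models that end at the stop codon, so the annotation places no stem-loop in them.

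The clustered histone genes were a small part of these libraries. Their counts summed to 526 and 1006 in FGF2 libraries 1 and 2 and to 665 and 1280 in NC libraries 1 and 2, which is 0.00365% of the total in FGF2 library 2 and 0.00468% in NC library 2. Of the 71, 21 had 0 counts in all 4 libraries, and 34 had at least 1 count in every library. A gene at 0 in library 2 may still stand at up to 0.109 CPM (counts scaled to the library total) in FGF2 or 0.110 in NC, the level of 3 counts. Between those extremes most members held single-digit counts, and the median count was 3 in both libraries 2. A total of 25 members reached 10 counts in library 2 of either group, here called captured. In FGF2 library 2, 28.2% of the members had at least 10 counts, against 63.0% of all protein-coding genes. In NC library 2 the shares were 31.0% and 64.3%. Few genes held most of the signal: HIST3H2A and HIST1H2BK together took 34.1% of the members' counts in FGF2 library 2 and 24.6% in NC library 2, and the 8 genes with at least 50 counts took 66.3% and 66.8%.

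Members with a long annotated 3′ end were captured more often. Of 29 members whose model runs over 100 bases past the coding part, 19 were captured (65.5%). Of 35 whose model holds no base after the stop codon, 5 were captured (14.3%) and 15 had 0 counts throughout. Those at 0 include HIST1H2AD, HIST1H2AK, HIST1H2AM, HIST1H3D and HIST2H3PS2. In these members 88.0% to 100.0% of the exon bases also lie in exons of another gene. Whether this overlap lowered their counts was not tested. The 7 members whose model ends within 100 bases of the coding part had 1 captured. Long models also offer more bases for reads, with a median exon length of 1656 bases against 393 for the coding models, and reads past the stop codon are not counted for a gene whose model stops there. By median the order per length was the same. Median FPKM (counts corrected for exon length and depth) in NC library 2 was 0.320 for the long models and 0 for the coding models. In FGF2 library 2 it was 0.218 and 0.0544. The coding models had a median count of only 0 in NC library 2 and 1 in FGF2 library 2. The highest members per length did not keep this order. In NC library 2 HIST1H2BK and HIST1H1C, on coding models, stood at 14.2 and 6.50 FPKM, beside 6.83 for HIST3H2A, the highest long model.

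**Figure D1:**
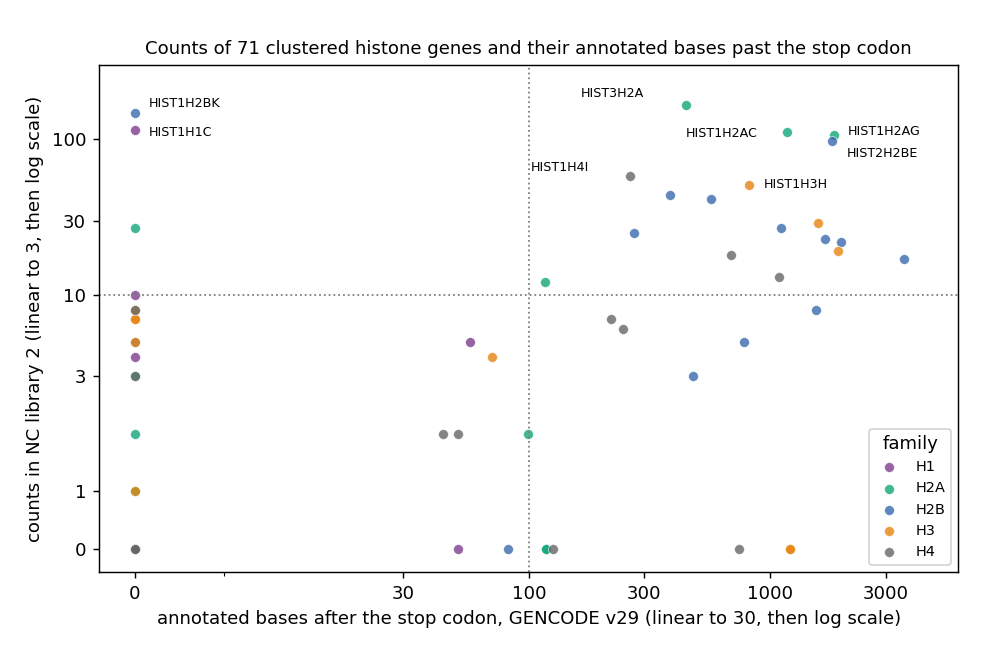
Counts in NC library 2 (vertical axis, linear to 3 and logarithmic above) against the annotated bases after the stop codon (horizontal axis, linear to 30 and logarithmic above), 1 point per clustered histone gene, coloured by family; dotted lines mark 10 counts and 100 bases. Most genes above 10 counts lie to the right of 100 bases, while HIST1H2BK and HIST1H1C have many counts on models with no base after the stop codon, and points of equal value overlap at 0.

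Stem-loops and poly(A) signals in the models went with the same genes. The stem-loop was searched on the transcript strand as GG, any 2 bases, CTT, any base, T, any base, A, any 3 bases and CC, a pattern that 0.846% of 83129 protein-coding transcripts hold. Of 32 members with it in their model 19 were captured (59.4%), and of 39 without it 6 were captured (15.4%). These classes largely follow the length of the models, since a coding model cannot hold a stem-loop of the 3′ end. Among the 32, 17 had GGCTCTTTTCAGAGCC, 5 each had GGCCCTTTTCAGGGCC and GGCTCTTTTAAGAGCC, and 3 had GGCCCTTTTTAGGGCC. The poly(A) signal AATAAA, which directs ordinary cleavage and tailing, stood in the last 50 bases of the model of 19 members, of which 12 were captured (63.2%). Of the other 52 members 13 were captured (25.0%), and 35.5% of all protein-coding transcripts hold AATAAA in that window. The 52 include the 35 members whose model holds no base after the stop codon, where a signal could not be recorded. A match is a description of letters only.

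The most abundant members by count encode H2A and H2B. HIST3H2A (ENSG00000181218, chr1:228456979-228457873) encodes an H2A of the small cluster on chromosome 1 and had 94 and 177 counts in FGF2 libraries 1 and 2 and 85 and 167 in NC libraries 1 and 2, 7.17 and 6.83 FPKM in libraries 2. HIST1H2BK (ENSG00000197903, chr6:27146418-27146798), an H2B gene of the large cluster on chromosome 6, had 87 and 166 counts in FGF2 and 95 and 148 in NC. Per length it was the highest member, at 15.8 FPKM in FGF2 library 2 and 14.2 in NC library 2, on a model of only 381 coding bases. In both genes the FGF2 and NC values lay close together, and the scaled read sets overlapped between the groups for HIST1H2BK but not for HIST3H2A.

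The annotation shows 1 reason why the HIST1H2BK count is uncertain, and a possible one for the HIST1H4I count. A share of 74.1% of its 50-base stretches also occurs in other genes, above all in H2BFS (2, 2, 0 and 1 counts at the H2BFS gene that had any). RefSeq gives the same gene, there called H2BC12, a span of 8566 bases that covers the model of HIST1H4I on the opposite strand. Strand is not marked by the library kit, and reads of both genes in that stretch could not be told apart. A span can include introns, and RefSeq exons were not examined, so whether HIST1H2BK RNA gives reads there is not known. Any such reads would enter the HIST1H4I count, because HIST1H2BK was counted on a model of 381 bases that lies outside the stretch.

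The other H2A and H2B genes with at least 50 counts had lower values in FGF2 than in NC. HIST1H2AC (ENSG00000180573, chr6:26124145-26139116), an H2A gene, had 31 and 51 counts in FGF2 and 47 and 112 in NC. HIST1H2AG (ENSG00000196787, chr6:27133042-27135291), another H2A gene, had 35 and 66 counts against 48 and 107. HIST2H2BE (ENSG00000184678, chr1:149884459-149886652), an H2B gene, had 34 and 58 counts against 54 and 98. After scaling, both FGF2 read sets of each of these genes lay below both NC read sets. With a gap of at least 1.2-fold, 5 of the 14 members that average 10 counts or more per set had this order. The reverse was found for 0 of them. Among all 13801 genes that meet this minimum 15.6% had this order with that gap, and 11.6% the reverse. The share of all genes without a required gap is not given here.

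Both FGF2 read sets also lay below both NC read sets for the leading H1 and H3 genes but not for H4. HIST1H1C (ENSG00000187837, chr6:26055787-26056428) encodes the linker histone H1.2 and had 40 and 80 counts in FGF2 and 55 and 114 in NC. HIST1H3H (ENSG00000278828, chr6:27810064-27811300), an H3 gene, had 8 and 12 counts in FGF2 and 28 and 51 in NC, so that the whole of FGF2 library 2 held fewer of its reads than NC library 1. HIST1H4I (ENSG00000276180, chr6:27138588-27139881), an H4 gene, had 28 and 57 counts in FGF2 and 34 and 58 in NC, and its read sets overlapped between the groups. As described above, its count may hold reads of HIST1H2BK.

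**Figure D2:**
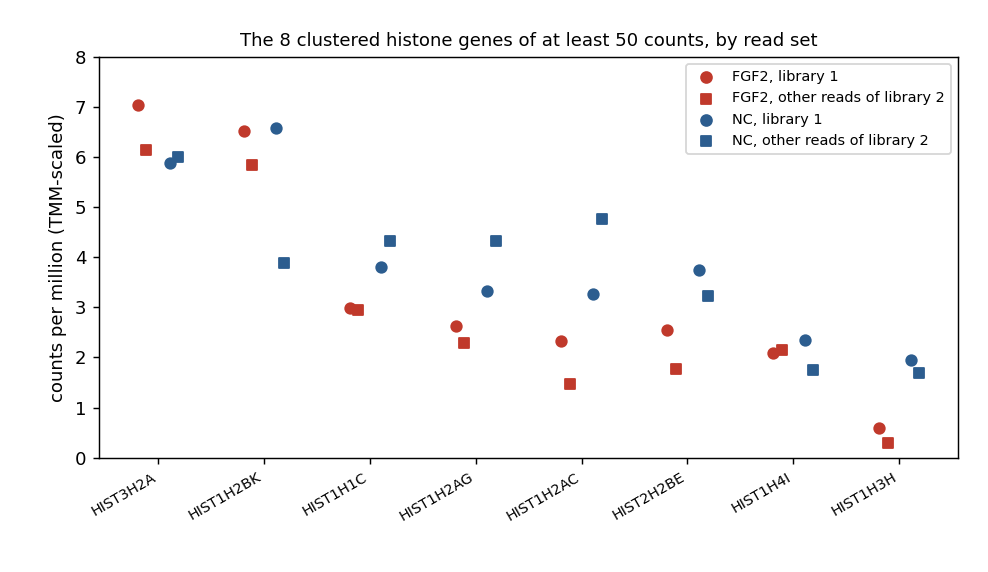
TMM-scaled CPM (vertical axis, linear from 0) of the 8 clustered histone genes with at least 50 counts in a library 2, for library 1 (circles) and the other reads of library 2 (squares) of FGF2 (red) and NC (blue). HIST1H3H has both FGF2 values at or under 0.599 CPM and both NC values at or over 1.69 CPM, while the red and blue points of HIST1H2BK and HIST1H4I overlap.

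FGF2 was set against NC by parting each group into 2 disjoint read sets, namely library 1 and library 2 less library 1, and scaling them with edgeR's TMM factors. A gene was called when both FGF2 sets lay at least 1.5-fold above, or below, both NC sets. Where a gene had to average 50 counts or more per set, only HIST3H2A and HIST1H2BK could be judged, and 0 of these 2 were called, where the rule called 3.06% of 11000 genes higher and 5.36% lower. At the lower minimum of 10 counts 14 members could be judged: 0 were called higher, against 3.46% of 13801 genes, and 1 lower, HIST1H3H, against 6.99%. HIST1H3H had 8 and 4 counts in the FGF2 sets and 28 and 23 in the NC sets, so it met this minimum, and the 50 counts for being named, only through NC, where it is high. Relaxed to 1.2-fold, the rule called 0 of the 14 higher (11.6% of all genes) and 5 lower (15.6%). All 5 averaged under 50 counts per set. Among the 11000 genes averaging 50 or more, 13.7% were 1.2-fold lower, so genes under 50 were called lower more often than 15.6%. The shares at 1.5-fold, 5.36% and 6.99%, differed in the same way. The 5 were HIST1H1C, HIST1H2AC, HIST1H2AG, HIST1H3H and HIST2H2BE, and 4 of them carry AATAAA at the end of the model. So do HIST1H2BD, HIST1H2BJ and HIST1H3G, which were among the 14 and were not called. At 2-fold 0 of 2 members were called at the higher minimum (1.07% of genes higher, 1.65% lower), and at the lower one 0 of 14 were higher (1.43%) and 1, again HIST1H3H, was lower (2.63%). With no minimum the 1.5-fold rule took 3 of 71 higher and 7 lower (2.26% and 3.98% of 51103 genes), of which 9 had under 10 counts per set. The 57 members outside the 14 had too few counts to show whether they differed 1.5-fold.

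Among these 14 members HIST1H3H was farthest from 0, with a log2 fold change (FGF2 over NC) of -1.98 (95% counting interval -3.07 to -1.10), -1.63 between libraries 1 and -2.37 between the other reads. HIST1H2AC stood at -1.06 (-1.58 to -0.58), but its value between libraries 1 was -0.48 and that between the other reads -1.66, so the size of its difference was not settled. HIST2H2BE stood at -0.69 (-1.19 to -0.21) and HIST1H2AG at -0.63 (-1.10 to -0.18). The values of both were below 0 in libraries 1 and in the other reads of libraries 2.

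HIST1H1C stood at -0.45 (-0.88 to -0.023), an interval that nearly reaches 0. HIST1H2BK stood at 0.23 (-0.10 to 0.56), HIST3H2A at 0.15 (-0.17 to 0.46) and HIST1H4I at 0.038 (-0.52 to 0.59), and no direction was detectable for these genes at this depth. Counting intervals are too narrow for these files: comparing the 2 disjoint sets of a group gave a chi-square of 2.21 per gene over 3915 genes of middling count in FGF2 and 2.33 over 4039 in NC, where counting error alone gives about 1.

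**Figure D3:**
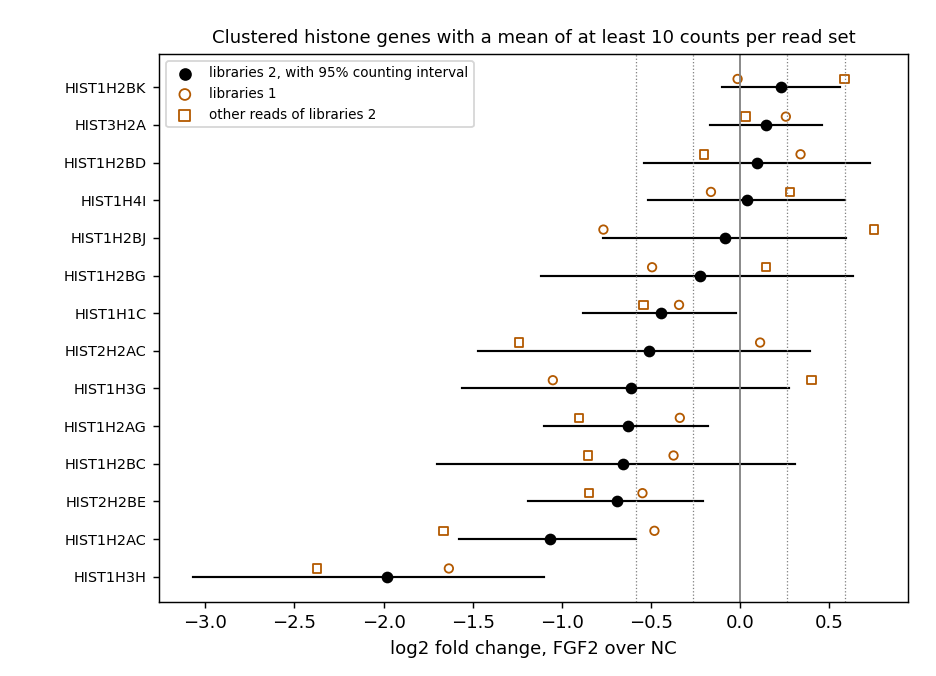
Log2 fold change of FGF2 over NC (horizontal axis) for the 14 clustered histone genes that average 10 counts or more per read set. Filled points are libraries 2 with their 95% counting interval, open circles libraries 1 and open squares the other reads of libraries 2, and dotted lines mark 1.2-fold and 1.5-fold. The filled points of 10 genes lie below 0, and HIST1H3H, at -1.98, is farthest from 0.

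The median log2 fold change depended on the minimum count. It was 0.19 over the 2 members with at least 50 counts per set, against 0.019 over all 11000 genes. Over the 14 members with at least 10 it was -0.48, with 10 of 14 below 0, against -0.0061 over 13801 genes, of which 50.8% were below 0. Genes of low count tended to lie below 0 throughout the table: among 2801 genes between these minimums the median was -0.22 and 63.6% were below 0, beside -0.56 and 10 of 12 for the members in that range.

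Summed over all 71 genes, the counts were lower in FGF2. The scaled sums were 39.4 and 35.5 CPM in the FGF2 read sets and 46.1 and 45.1 CPM in the NC read sets, with no overlap, a log2 fold change of -0.28 (-0.41 to -0.16) or a 1.22-fold higher sum in NC. The sum does not measure total histone mRNA, because most of these mRNAs end without a poly(A) tail. In bulk polyA RNA fewer cells in S phase, less histone RNA per cell and a smaller share with a tail cannot be told apart. A sum is not touched by how reads are split between near-identical members. It rests on few genes: without HIST1H2AC, HIST1H2AG and HIST2H2BE, the 3 with the largest fall in counts, it was -0.15.

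H3 and H1 had sums below NC in both read sets, and the other families differed less. The 15 H3 genes summed to 2.10 and 2.29 CPM in the FGF2 sets and 5.41 and 3.88 CPM in the NC sets, a log2 fold change of -1.08 (-1.56 to -0.63). Without HIST1H3H the other 14 H3 genes stood at -0.70 (-1.26 to -0.17), with -1.19 between libraries 1 and -0.14 between the other reads. The 6 H1 genes summed to 3.30 and 3.40 CPM against 4.16 and 5.35 CPM, a log2 fold change of -0.50 (-0.90 to -0.10), and HIST1H1C held 80 and 114 of their counts in libraries 2. The sum of the other 5 H1 genes was only 10 and 19 counts.

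The H2A sum gave different answers in the 2 read sets, with a log2 fold change of 0.0076 between libraries 1 and -0.61 between the other reads (-0.29 in libraries 2). The 18 H2B genes, which held 40.1% of the members' counts in FGF2 library 2 and 36.4% in NC library 2, stood at -0.15 (-0.34 to 0.049). The 15 H4 genes stood at 0.050 (-0.33 to 0.43). Captured genes were spread over all families, with 2 of 6 for H1, 6 of 17 for H2A, 10 of 18 for H2B, 3 of 15 for H3 and 4 of 15 for H4.

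**Figure D4:**
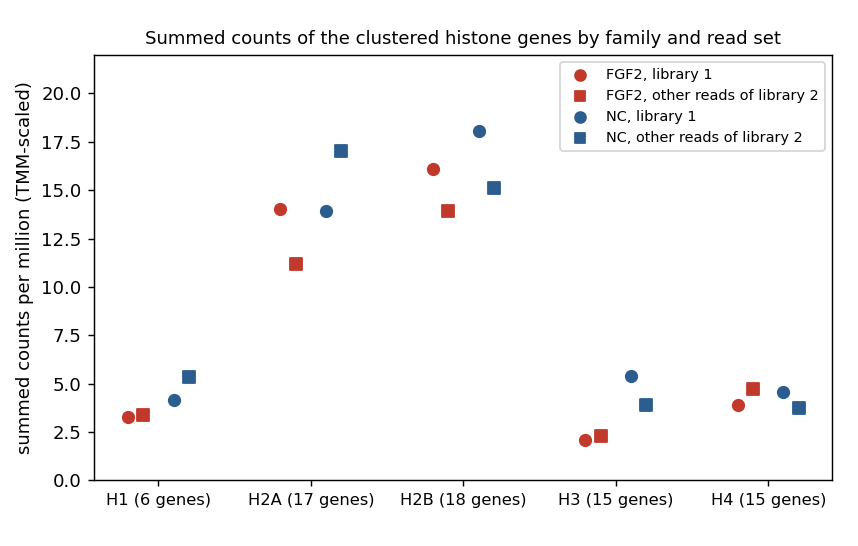
Summed TMM-scaled CPM (vertical axis, linear from 0) of the clustered histone genes of each family, for library 1 (circles) and the other reads of library 2 (squares) of FGF2 (red) and NC (blue). In H1 and H3 both red points lie below both blue points, while in H2A, H2B and H4 red and blue overlap.

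Split by the end of the model, the lower sum lay mostly with genes whose model carries a poly(A) signal there. The 19 members with AATAAA in the last 50 bases summed to 13.9 and 11.98 CPM in the FGF2 sets and 21.2 and 19.9 CPM in the NC sets, a log2 fold change of -0.67 (-0.87 to -0.48). The 52 without it summed to 25.6 and 23.5 CPM against 25.0 and 25.1 CPM, a log2 fold change of -0.031 (-0.19 to 0.12). They include the 35 members whose model ends at the stop codon, HIST1H2BK and HIST1H1C among them, where no signal could be recorded. The split thus partly follows where the models end and does not show which genes lack a signal. Leaving out HIST1H2AC or HIST1H3H gave -0.59 for the group with the signal. High counts of few genes weigh on both groups. Of the 659 and 703 counts without the signal in libraries 2 of FGF2 and NC, HIST3H2A held 177 and 167 and HIST1H2BK 166 and 148. HIST1H2AC, HIST1H2AG and HIST2H2BE, the members with the largest fall in counts, carry the signal and were not left out together. The difference between the groups with and without the signal was not tested. By cluster, the 55 HIST1 genes on chromosome 6 stood at -0.35 (-0.49 to -0.21), the 12 HIST2 genes at -0.58 (-0.98 to -0.20) and the 3 HIST3 genes at 0.055 (-0.24 to 0.35). The HIST2 value was -0.23 between libraries 1 and -0.997 between the other reads, and the HIST3 value changed sign, at 0.36 and -0.26.

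The members below 50 counts covered a wide range. The 63 of them summed to 169, 339, 219 and 425 counts in FGF2 libraries 1 and 2 and NC libraries 1 and 2. For 32 of all members both libraries 2 held 3 counts or fewer, and no fold is given for them. The single HIST4 gene, HIST4H4 (an H4 gene on chromosome 12), had 4 and 18 counts in FGF2 and 3 and 7 in NC, and HIST1H2BO, an H2B gene, had 7 and 17 against 2 and 5. These 2 were picked out after their values were seen, as members with more counts in FGF2. At such counts their intervals reach from 0.098 to 2.93 and from 0.33 to 3.62 on the log2 scale.

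Several members are copies of each other, and reads that match both may be lost or split, which the sources used here do not describe. HIST2H3A and HIST2H3C have identical transcripts of 1656 bases and had 0 counts in every library. HIST2H4A and HIST2H4B also have an identical transcript of 610 bases, and HIST2H4A had 4 and 5 counts in FGF2 and 3 and 6 in NC. HIST2H2AA3 with HIST2H2AA4, and HIST1H4J with HIST1H4K, share their whole coding sequence. Of the 17 members that share at least 50% of their 50-base stretches with another gene 2 were captured (11.8%), against 23 of the other 54 (42.6%). The sum of those 54 had a log2 fold change of -0.40 (-0.53 to -0.27). Not all of the 17 are there as copies. HIST1H2AD, HIST1H2AK, HIST1H2AM, HIST1H3D and HIST2H3PS2, all at 0 counts, share stretches at least partly because their models overlap exons of another gene.

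The clusters also hold 19 histone pseudogene rows, of which 13 had 0 counts throughout. HIST2H2BC, a transcribed H2B pseudogene, had 80 and 142 counts in FGF2 and 109 and 215 in NC, a higher count than any member in NC library 2. Per length it stood at only 1.22 FPKM there, against 14.2 for HIST1H2BK. Its log2 fold change was -0.53 (-0.85 to -0.22). HIST2H2BD had 25 and 45 counts against 49 and 99, a log2 fold change of -1.07 (-1.62 to -0.55). Both had lower values in FGF2 in both read sets, as did HIST2H2BE of the same cluster.

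Many H2A and H2B genes stand back to back and share a promoter region, and a pair could differ widely in polyA counts. HIST3H2A and HIST3H2BB start 233 bases apart and point away from each other. HIST3H2A had 177 and 167 counts in libraries 2 of FGF2 and NC, whereas HIST3H2BB had 14 and 22, and per length they stood at 7.17 and 6.83 FPKM against 0.215 and 0.341 FPKM. Likewise HIST1H2BK had 166 and 148 counts beside 0 and 3 for HIST1H2AH. Other pairs were closer. HIST1H2BJ had 37 and 41 counts beside 66 and 107 for HIST1H2AG, or 1.41 and 1.58 FPKM beside 1.06 and 1.74. HIST2H2BE had 58 and 98 counts beside 18 and 27 for HIST2H2AC. Per length this order was reversed, with HIST2H2BE at 0.958 and 1.635 FPKM and HIST2H2AC at 1.67 and 2.53. These pairs were named after their values were seen.

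Promoters are shown for HIST3H2A, the member with the most counts and the window that it shares with HIST3H2BB, and for HIST1H3H, the member farthest from equal levels among the 14 that average 10 counts or more per read set. They are RefSeq sequences (GRCh38.p14) from 250 bases before to 50 after the gene start, chr1:228457824-228458123 (minus strand) and chr6:27809801-27810100 (plus strand). Capitals mark CCAAT on either strand (ATTGG on the other) and TATAAA.
HIST3H2A promoter: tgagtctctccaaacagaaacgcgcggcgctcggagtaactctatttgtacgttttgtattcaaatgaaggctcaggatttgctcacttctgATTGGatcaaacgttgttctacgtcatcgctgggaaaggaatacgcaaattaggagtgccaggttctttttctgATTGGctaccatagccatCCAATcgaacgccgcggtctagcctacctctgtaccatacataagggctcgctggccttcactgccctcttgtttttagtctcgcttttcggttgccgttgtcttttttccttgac
HIST1H3H promoter: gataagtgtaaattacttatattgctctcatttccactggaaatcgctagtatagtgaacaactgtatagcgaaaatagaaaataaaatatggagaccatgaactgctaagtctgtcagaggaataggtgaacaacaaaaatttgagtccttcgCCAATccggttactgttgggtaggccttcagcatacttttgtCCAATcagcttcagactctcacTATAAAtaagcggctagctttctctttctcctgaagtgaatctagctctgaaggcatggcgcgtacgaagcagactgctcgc
HIST3H2A had 3 CCAAT and no TATAAA match, and HIST1H3H had 2 CCAAT and 1 TATAAA. A RefSeq promoter was matched for 61 members. CCAAT, the letters bound by the factor NF-Y, occurred in 83.6% of them against 34.6% of 35116 promoters, TATAAA in 68.9% against 11.5%, and the octamer ATTTGCAT, read by OCT1, in 32.8% against 1.77%. Motifs were searched on both strands with overlapping matches counted.

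Variant histones, most of which come from genes outside the clusters with ordinary polyadenylated mRNAs, were more abundant in these libraries. The 11 variant genes summed to 643.5 FPKM in FGF2 library 2 and 714.9 in NC library 2, and the 71 clustered genes to 47.8 and 54.1 FPKM. H2AFX, which is known to give both a stem-loop mRNA and a polyadenylated one, had 190.7 and 249.8 FPKM of the variant sum. Of 10 variant genes with at least 50 counts per set 0 were called at 1.5-fold, and at 1.2-fold 1 was higher and 2 lower (12.2% and 13.7% of 11000 genes). H3F3B, which encodes the replacement histone H3.3, had 8748 and 17018 counts in FGF2 and 6247 and 12363 in NC and was higher, at 0.52 (0.49 to 0.56). H1FX, a linker histone variant gene, was lower at -0.55 (-0.64 to -0.47), with 954 and 1783 counts against 1367 and 2732. H2AFV, which encodes an H2A.Z protein, was lower at -0.31 (-0.37 to -0.26).

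**Figure D5:**
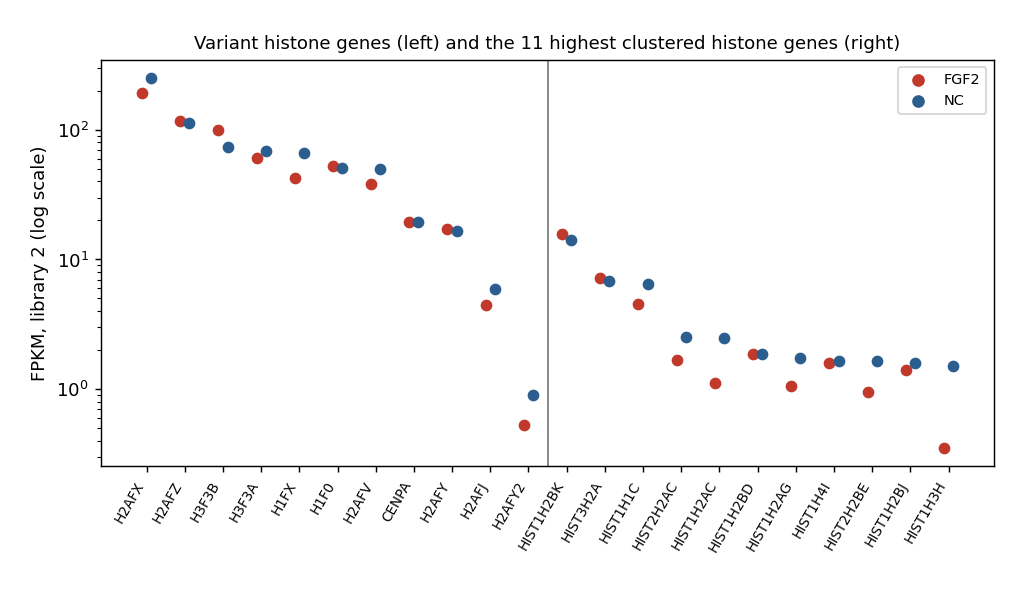
FPKM in library 2 (vertical axis, logarithmic) of FGF2 (red) and NC (blue) for the 11 variant histone genes, left of the line, and the 11 clustered histone genes of highest FPKM in NC, right of it. All variant genes but H2AFJ and H2AFY2 lie above every clustered gene, and HIST1H2BK is the highest clustered gene at 15.8 and 14.2 FPKM.

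The genes that transcribe, process and turn over histone mRNA were well measured, and 0 of them met the 1.5-fold bound. At 1.2-fold, the bound used below, 12.2% of all 11000 genes were higher and 13.7% lower. Of 5 transcription factors of histone genes 0 were 1.2-fold higher and 1 lower: HINFP, which activates H4 genes, stood at -0.39 (-0.53 to -0.25). Of 11 genes of 3′ end formation 2 were higher and 0 lower, with a median log2 fold change of 0.13: LSM10, a subunit of the U7 RNP, at 0.58 (0.45 to 0.70), and the cleavage factor gene CSTF2 at 0.34 (0.25 to 0.42). SLBP, the stem-loop binding protein gene, chosen for its role and not for its call, had 1234 and 2579 counts in FGF2 and 1374 and 2614 in NC, a log2 fold change of 0.043 (-0.036 to 0.12). Among 5 genes of histone mRNA turnover and translation 0 were higher and 0 lower (median 0.18).

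Histone chaperones, which carry histones to DNA, had 1 of 22 genes higher and 1 lower at 1.2-fold, beside 12.2% and 13.7% of all genes (median 0.012). HIRA, a chaperone of H3.3, stood at 0.72 (0.48 to 0.97), and ASF1B, which serves DNA replication, at -0.39 (-0.47 to -0.32). Of 18 S phase genes 1 was higher, CCNE1 (cyclin E1) at 0.43 (0.20 to 0.66), and 2 were lower, among them the replicative helicase gene MCM6 at -0.44 (-0.51 to -0.37). Their median was -0.049, against 0.019 over all genes. Of 15 genes of ordinary poly(A) site cleavage and tailing 1 was higher, PABPC1, a poly(A)-binding protein gene, at 0.32 (0.30 to 0.34), and 0 were lower (median 0.090).

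Markers of the labelled line were mixed. The keratin genes KRT7, KRT8 and KRT18 were abundant, as in epithelial cells (KRT8 at 190.6 FPKM in FGF2 library 2 and 270.3 in NC library 2). Of 5 epithelial markers judged at 1.5-fold, KRT19 was higher in FGF2, with 1562 and 3067 counts against 836 and 1742, and ELF3, an epithelial transcription factor gene, was lower, with 17 and 33 counts against 164 and 354. EPCAM stood at only 0.518 and 1.19 FPKM, and the gastric markers TFF1, GKN1 and PGC had 0 counts in all 4 libraries. The gastric mucin gene MUC6 had 23 and 39 counts in FGF2 and 4 and 8 in NC. MUC5AC went the other way, with 3 and 4 counts against 4 and 13, and TFF2 had 0 and 0 against 0 and 3. The summed fibroblast markers were lower in FGF2, as was the histone sum, through the 1 of the 6 that could be judged. The list of 6 summed to 60.1 and 59.5 FPKM in the FGF2 libraries and 101.7 and 104.7 in the NC libraries, nearly all of it COL1A1 (59.5 and 103.8 FPKM in libraries 2 of FGF2 and NC). COL3A1 was also lower in FGF2, with 6 and 6 counts against 65 and 137. LUM had 0 and 0 counts against 8 and 12, and DCN 0 and 0 against 3 and 8. COL1A2 had 0 counts throughout, and PDGFRA had 2 and 3 counts in FGF2 and 0 in NC. In FGF2 library 2, 3 of the 6 were at 0, and in NC library 2, 2 of the 6. Their part in the histone values was not tested. The 3 endothelial and 5 blood markers summed to 1.02 FPKM or less per list in either library 2.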

How the data were processed

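Each of the 4 libraries came with a table of raw read counts and FPKM values per gene, as the authors deposited them. HISAT2, HTSeq 0.13.5 and GRCh38 are named in the submitters' processing notes. The settings for reads that match several places and the annotation release are not given in the sources used here. For 50 of the 50 members with a count, the gene length implied by the deposited FPKM values equalled the GENCODE v29 exon length, so models and coordinates were taken from that release. Per the labels, libraries were made with NEBNext Ultra RNA, which does not mark strand.

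Counts of the disjoint read sets were scaled by TMM (edgeR 4.0.16) over the 14043 genes kept by filterByExpr. Log2 ratios compare libraries 2 with 0.5 added to each count. A gene was called when both FGF2 sets lay at least 1.5-fold on 1 side of both NC sets, among genes averaging 50 counts or more per set. The calling rule was run on simulated counts with counting error only, for genes at that minimum. That run cannot show how the rule behaves with the wider spread of these data or at lower counts. No model was fitted and no p-value computed, because each group counts as 1 sample. Members were named with their counts at 50 or more counts in a library 2, and other genes when called at 1.2-fold; exceptions are stated. The members and gene lists were chosen with earlier results of these data known. Alternatives were DESeq2 1.42.0 size factors, library totals, other bounds and minimums, FPKM and leaving out libraries. Rows of small nuclear and other RNAs without a tail were not analysed here. Computations used Python 3.11.15 and R 4.3.3.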

Additional observations from a re-analysis of the deposited data

How the results depend on the processing

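The members called higher stayed at 0 and those called lower at 0 under both other scalings, both other bounds, and with any library left out, but these counts rest on only 2 members that met the minimum. With a minimum of 10 counts 1 member was called lower, and with no minimum 3 were higher and 7 lower (2.26% and 3.98% of 51103 genes), mostly at under 10 counts. The summed log2 fold change of -0.28 stayed below 0 under all alternatives run, from -0.40 to -0.15. The value of -0.15 came from leaving out the 3 members with the largest fall, an alternative chosen after seeing the data. It was -0.30 to -0.21 with 1 library left out, and -0.36 by library totals. Leaving out either library 1 could move no fold, sum or median, because libraries 2 hold those reads, so only 2 of these 4 settings were checks. The median of 0.19 over 2 members became 0.31 in the other reads of libraries 2, 0.030 to 0.28 with 1 library left out (0.030 without NC library 2), and -0.48 at a minimum of 10 counts. Captured members numbered 8 at 50 counts, 43 at 3 counts and 13 at 1 FPKM, in place of 25. Under the other 8 alternatives 6 of the 8 named members kept their sign throughout, HIST1H2BK under 6 and HIST1H4I under 4. HIST1H3H stood at -0.89 on the log2(FPKM + 1) scale, which shrinks low genes. No paired analysis was possible because no model is fitted and each group counts as 1 sample. Depth limits every value here: 57 of 71 members had under 10 counts per read set.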
